A study of Arabidopsis thaliana with 12 samples.

Results

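The 10 aliphatic glucosinolate genes described here were taken by their identifiers from the 27655 genes of an RNA-seq table of Arabidopsis thaliana inflorescence stems. They are the transcription factor genes MYB28 (AT5G61420), MYB29 (AT5G07690) and MYB76 (AT5G07700), the chain elongation genes BCAT4 (AT3G19710), BAT5 (AT4G12030), MAM1 (AT5G23010) and MAM3 (AT5G23020), and the cytochrome P450 genes CYP79F1 (AT1G16410), CYP79F2 (AT1G16400) and CYP83A1 (AT4G13770). Main stems of 2-month-old plants were sampled from Col-0 (WT), from the ccr1-3 mutant of the lignin gene CCR1 (ccr), from the fer4 mutant of the receptor kinase gene FERONIA (labelled fer), and from the double mutant (ccrfer), with 3 biological replicates each. The series asked to what extent genes that are up in ccr1-3 depend on FERONIA. The fer allele is written as fer4 for the first ccrfer library and with other numbers for the remaining ccrfer libraries, so their grouping follows the sample titles.

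Glucosinolates are sulfur-rich thioglucosides of the Brassicales that myrosinases cut into defence compounds when tissue is damaged. The aliphatic class is made from methionine. Methionine is deaminated in the cytosol, its keto acid enters the plastid and is lengthened there in rounds, and the elongated amino acid is turned into the glucosinolate core by P450s of the CYP79 and CYP83 families and the enzymes that follow them. MYB28, MYB29 and MYB76 are R2R3-type activators of these genes, and they act together with the bHLH factors MYC2, MYC3 and MYC4, which are known to bind G-box sequences.

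The genes lie on 4 chromosomes in the TAIR10.1 assembly of RefSeq, and 6 of them form 3 pairs of direct neighbours on the plus strand with 0 protein-coding genes between the partners. MYB29 (chr5:2446669-2448584) is followed by MYB76 (chr5:2450027-2451807) after 1442 bases. CYP79F2 (chr1:5605044-5607498) is followed by CYP79F1 (chr1:5608682-5612064) after 1183 bases, and MAM1 (chr5:7703041-7706973) by MAM3 (chr5:7718118-7721866) after 11144 bases. The single genes are MYB28 (chr5:24689069-24691187, minus strand), BCAT4 (chr3:6846969-6849582, minus strand), BAT5 (chr4:7210807-7213376, plus strand) and CYP83A1 (chr4:7990429-7992429, minus strand).

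The 250 bases upstream of the annotated start are shown for the MYB29 and CYP79F neighbour pairs, of which the partners passed the filter on low values, and for CYP83A1, in which a G-box was found. The third pair is left out because MAM3 was not tested. The coordinates of these stretches are chr5:2446419-2446668 for MYB29, chr5:2449777-2450026 for MYB76, chr1:5608432-5608681 for CYP79F1, chr1:5604794-5605043 for CYP79F2 and chr4:7992430-7992679, on the minus strand, for CYP83A1. Each is written 5′ to 3′ in the direction of the gene. Capitals mark the G-box CACGTG and the related AACGTG, each searched on both strands, so that AACGTG on the other strand reads CACGTT, and TATAAA on the strand of the gene. All sequences are from RefSeq.
MYB29: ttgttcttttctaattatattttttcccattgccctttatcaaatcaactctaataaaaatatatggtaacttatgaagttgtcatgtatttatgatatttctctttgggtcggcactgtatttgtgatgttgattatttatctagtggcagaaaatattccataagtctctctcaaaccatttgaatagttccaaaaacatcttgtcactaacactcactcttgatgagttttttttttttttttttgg
MYB76: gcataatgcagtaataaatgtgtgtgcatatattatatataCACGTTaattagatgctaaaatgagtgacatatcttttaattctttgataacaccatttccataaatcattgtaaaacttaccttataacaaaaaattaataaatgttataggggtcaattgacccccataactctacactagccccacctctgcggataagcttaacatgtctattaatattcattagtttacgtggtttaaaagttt
CYP79F1: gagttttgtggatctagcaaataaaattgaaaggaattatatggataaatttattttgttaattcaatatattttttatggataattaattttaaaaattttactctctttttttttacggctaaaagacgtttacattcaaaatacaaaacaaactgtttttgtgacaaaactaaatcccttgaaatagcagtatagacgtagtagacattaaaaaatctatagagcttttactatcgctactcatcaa
CYP79F2: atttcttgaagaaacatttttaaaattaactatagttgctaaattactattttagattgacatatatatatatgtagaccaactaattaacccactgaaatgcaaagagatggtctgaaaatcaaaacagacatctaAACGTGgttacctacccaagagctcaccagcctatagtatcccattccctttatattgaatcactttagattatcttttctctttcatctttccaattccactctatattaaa
CYP83A1: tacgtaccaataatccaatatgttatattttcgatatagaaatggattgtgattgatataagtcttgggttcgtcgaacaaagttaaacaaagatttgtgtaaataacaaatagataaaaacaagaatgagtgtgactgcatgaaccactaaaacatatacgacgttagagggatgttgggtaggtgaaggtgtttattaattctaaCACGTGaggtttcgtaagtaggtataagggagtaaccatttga
CACGTG was found in 1 of the 10 upstream stretches of 250 bases, that of CYP83A1, at 43 bases from the start, and in 6.49% of the 27443 genes with such a stretch. AACGTG was found in 2 of 10, at 209 bases from the start of MYB76 and at 113 bases from that of CYP79F2, and in 7.54% of all genes. Over 1000 bases upstream, CACGTG was found in 5 of 10 (MYB28, MYB29, BCAT4, MAM1 and CYP83A1) and in 14.8% of all genes, and AACGTG in 3 of 10 and in 23.8%. TATAAA stood within 250 bases in 3 of 10 (MYB28, BCAT4 and MAM3) and in 32.9% of all genes. The core letters CANNTG, which include CACGTG and not AACGTG, are common and were found within 250 bases in 6 of 10 and in 55.3% of all genes. These matches describe the letters of the sequence only.

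CYP79F1 and CYP79F2 are also close copies, with 91.4% identity over their aligned coding bases. Their longest identical coding run is 100 bases (chr1:5609966-5610065 in CYP79F1 and chr1:5606398-5606497 in CYP79F2), shown here in capitals with 20 coding bases to either side because reads from it could belong to either gene.
CYP79F1: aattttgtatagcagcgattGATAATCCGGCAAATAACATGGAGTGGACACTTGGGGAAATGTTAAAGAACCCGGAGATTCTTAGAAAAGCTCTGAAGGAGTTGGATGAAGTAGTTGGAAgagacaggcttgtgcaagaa
CYP79F2: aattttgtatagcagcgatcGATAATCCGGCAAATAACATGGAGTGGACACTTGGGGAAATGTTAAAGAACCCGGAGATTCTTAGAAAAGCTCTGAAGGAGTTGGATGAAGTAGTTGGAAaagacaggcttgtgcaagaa
Of the 75-base windows along the transcript, the length of 1 read, 26 of 2669 (0.974%) in CYP79F1 and 26 of 1944 (1.34%) in CYP79F2 occur in the partner as well. Coding identity was 82.3% between MAM1 and MAM3 and 75.4% to 77.6% among the MYB genes, and none of these 5 genes held a 75-base window found in another gene. BCAT4 shares 16.9% of its windows with AT3G19700, which overlaps it on the opposite strand and stood at 0 to 0.392 FPKM. FPKM, the unit of the table, is nominally mapped fragments per transcript length and per depth of the library, meant to let levels be set side by side between genes. The scaling for depth was the authors' and was not recomputed, so it may not follow the total reads of a library. The median over the tested genes was 11.6 to 11.9 FPKM in every library. That includes ccrfer replicate 3, where AT2G01021 alone was listed at 45932600 FPKM.

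The 12 libraries held 56884740 to 227159338 reads, of which 91.4% to 94.2% were mapped. Libraries of a genotype correlated at r of 0.968 or more over the tested genes, except in ccrfer, where r was 0.938 to 0.983. FER stood at 82.99 to 85.93 FPKM in WT and at 83.11 to 85.13 FPKM in the libraries labelled fer, so the transcript level goes against that label, and at 0.16 to 1.49 FPKM in ccrfer. CCR1 stood at 236 ± 17.3 FPKM (SD, n = 3) in WT and 199 ± 18.3 FPKM in ccr, a difference that was not called (-0.25, adjusted p = 0.0738), and at 206 ± 26.0 FPKM in ccrfer. A transcript level does not check every mutation, and the libraries labelled fer are called by their label throughout. Lignified stem markers were low in WT, where the xylem wall gene IRX3 stood at 1.44 ± 0.331 FPKM (SD, n = 3) and FLA11, of secondary walls, at 2.24 ± 0.341 FPKM, while ccr held 86.9 ± 3.04 and 136 ± 2.85 FPKM. The vascular marker sum of 4 genes was 26.4 to 27.0 FPKM in WT, 292 to 299.8 in ccr, 243 to 254 in the libraries labelled fer and 510.01 to 550.2 in ccrfer. Of 4 seed markers, 4 were at 0 in every WT library, and their sum was 49.1 to 54.8 FPKM in the libraries labelled fer and at most 0.621 FPKM in ccr and ccrfer. In the libraries labelled fer that sum came from CRA1, CRC and OLEO1, while ABI3 stood at 0.0982, 0 and 0.183 FPKM. The sum of 4 epidermis markers was 78.5 to 83.0 FPKM in WT, 121 to 125 in ccr, 159 to 183 in the libraries labelled fer and 184 to 190.1 in ccrfer, and that of 4 phloem markers 287 to 311, 174 to 197, 234 to 269.5 and 187 to 271 FPKM. Members of these 2 sums moved in different directions. From WT to ccr the mean of KCS6 went from 74.7 to 108 FPKM and that of CER1 from 0.0772 to 12.7. ATML1 went from 5.35 to 2.71, and PDF1 was near 0 in both. Among the phloem markers SUC2 went from 198 to 99.4 FPKM, AHA3 from 73.0 to 51.9 and APL from 18.4 to 13.2, while SEOR1 went from 6.17 to 21.1. AT2G01021 stood at 42536 to 410312 FPKM in WT and ccr and above that in 5 of the other 6 libraries, up to 45932600 FPKM in ccrfer replicate 3. That library listed 9582 genes at 0, beside 6064 to 6686 in WT and ccr. In ccrfer replicate 2 AT2G01021 stood at 113705 FPKM, within the range of WT and ccr, and 6242 genes were at 0. The part of these transcripts in the results that follow was not tested, apart from a fit with AT2G01021 as a covariate. In such whole-stem RNA, fewer cells of a type and less RNA per cell cannot be told apart.

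MYB29, MYB76, BCAT4, CYP79F1 and CYP83A1 were called higher in ccr than in WT and higher again in ccrfer than in ccr. Both CYP83A1 calls were lost after quantile normalization. BAT5 had the same order of means, without a call in ccr against WT, and MYB28, MAM1, MAM3 and CYP79F2 did not have that order. MYB29 and MYB76, low in WT, showed the largest differences between ccr and WT, and CYP79F2 and MAM3 stood lower in ccr than in WT. A gene was tested when it reached FPKM 1 in at least 3 libraries, which 9 of the 10 did, MAM3 being the exception. MYB76 passed that filter only through the mutants. In ccr against WT, 6 of the 9 rose, 1 fell and 2 did not pass at an adjusted p under 0.05, while 24% of all 18428 tested genes rose and 19.8% fell. In ccrfer against ccr, 8 of the 9 rose and 1 fell, beside 10.4% and 10.1% of all tested genes. All differences are on the log2(FPKM + 1) scale, on which the median of the 9 was 0.28 in the first and 0.93 in the second comparison, and the median of all tested genes 0.03 and 0.00. Both comparisons share the ccr libraries. Libraries that do not overlap between 2 genotypes, as given for single genes in what follows, were common among the 18428 tested genes. In ccr against WT 6789 of them lay wholly higher and 5923 wholly lower. The numbers were 3655 and 3343 in ccrfer against ccr, and 3810 and 4111 in ccrfer against the libraries labelled fer. They were 5276 and 4964 in ccrfer against WT. For the libraries labelled fer they were 6354 and 5323 against WT, and 5335 and 4972 against ccr.

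**Figure D1:**
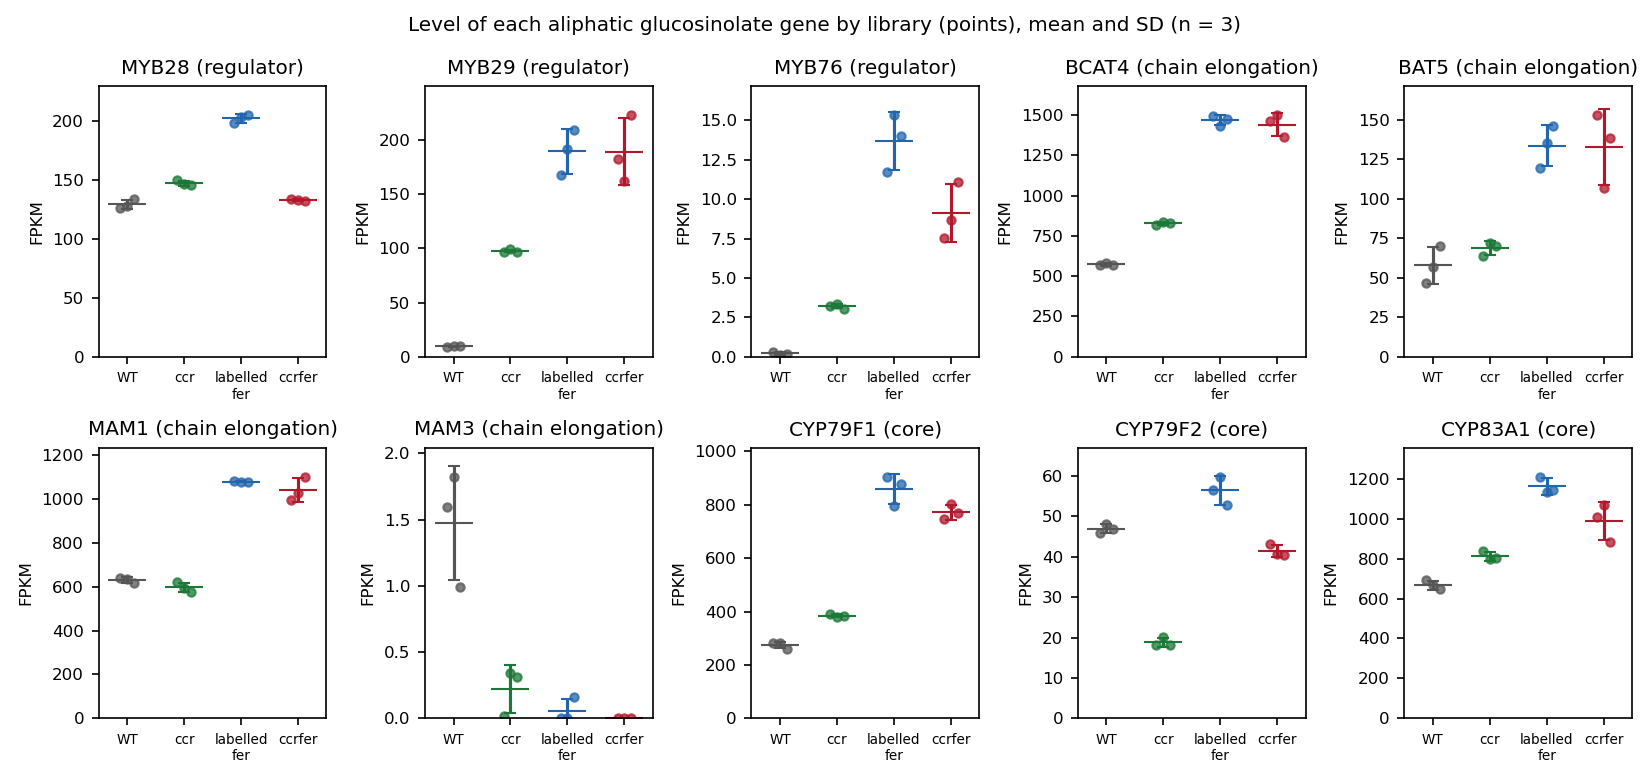
FPKM of each of the 10 genes by genotype, on a linear vertical axis that starts at 0 and has its own scale for each gene; points are single libraries and lines are the mean and SD of 3. MYB29 lies at 9.28 to 10.3 FPKM in WT and above 96 FPKM in every other library, MYB28 stays between 126.8 and 205 FPKM, and MAM3 lies below 2 FPKM throughout.

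Among the regulators, MYB28 was the most abundant in WT and MYB29 in ccrfer. MYB29 stood at 9.28, 9.71 and 10.3 FPKM in WT. Libraries of ccr held 97.0, 99.1 and 96.7 FPKM, those labelled fer 168, 191 and 209.5 FPKM, and those of ccrfer 182, 162 and 223 FPKM. The WT libraries lay lowest and the ccr libraries formed a tight group between WT and the rest, while ccrfer and the libraries labelled fer overlapped. The mean of ccr was 9.99 times that of WT, and the log2 difference was 3.20 (SE 0.106, adjusted p = 6.26e-10). From ccr to ccrfer the rise was 0.94 (SE 0.106, adjusted p = 5.53e-05).

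MYB76, the next gene downstream of MYB29, also rose from WT to ccr and from ccr to ccrfer, at a far lower level. WT libraries held 0.332, 0.135 and 0.200 FPKM, ccr libraries 3.23, 3.33 and 3.06, those labelled fer 11.7, 15.3 and 14.0, and ccrfer libraries 7.51, 8.70 and 11.1. No library of one genotype reached into the range of another, so that the order was WT, ccr, ccrfer and labelled fer. The log2 difference was 1.79 in ccr against WT (SE 0.151, adjusted p = 1.71e-06) and 1.25 in ccrfer against ccr (adjusted p = 9.2e-05). At these low values the size depends on the pseudocount, and with 0.1 in place of 1 the ccr against WT difference was 3.40, with 5 it was 0.65, called each time. Its differences from WT spanned 1.84 to 5.46 in the libraries labelled fer and 1.43 to 4.86 in ccrfer over the same pseudocounts.

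MYB28, the activator with the steadiest level here, stood at 126.8, 127.7 and 134 FPKM in WT. The ccr libraries held 149.7, 146 and 146 FPKM, those labelled fer 198, 204 and 205, and those of ccrfer 134, 133 and 132. Libraries of ccr lay above all WT libraries, and those of ccrfer lay within the WT range. MYB28 rose by 0.18 in ccr (SE 0.0438, adjusted p = 0.00482) and fell by 0.15 in ccrfer against ccr (SE 0.0438, adjusted p = 0.0338). The call of that fall was lost without any one of the ccr libraries (adjusted p = 0.0784 to 0.124), without ccrfer replicate 1 (0.0591) or 2 (0.0548), without WT replicate 2 (0.0572), and after quantile normalization (0.0566). It was lost as well without the trend in the prior spread (0.112), with only the compared genotypes fitted (0.0981) and with AT2G01021 as a covariate (0.101).

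Within a library, the ratio of MYB29 to MYB28 therefore moved from 0.0754 ± 0.00205 (SD, n = 3) in WT to 0.663 ± 0.0146 in ccr and 1.43 ± 0.240 in ccrfer, and was 0.935 ± 0.0865 in the libraries labelled fer. MYB28 was thus the more abundant transcript in each library of WT and ccr, and MYB29 in each of ccrfer. The ratios of ccrfer did not overlap with those of ccr, nor those of ccr with WT. For each of these 2 comparisons the exact two-sided permutation test gave p = 0.1, the smallest it can give for 3 against 3 libraries, and 0.12 after adjustment over the 6 ratio comparisons made. The ratios were chosen after the levels were seen.

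**Figure D2:**
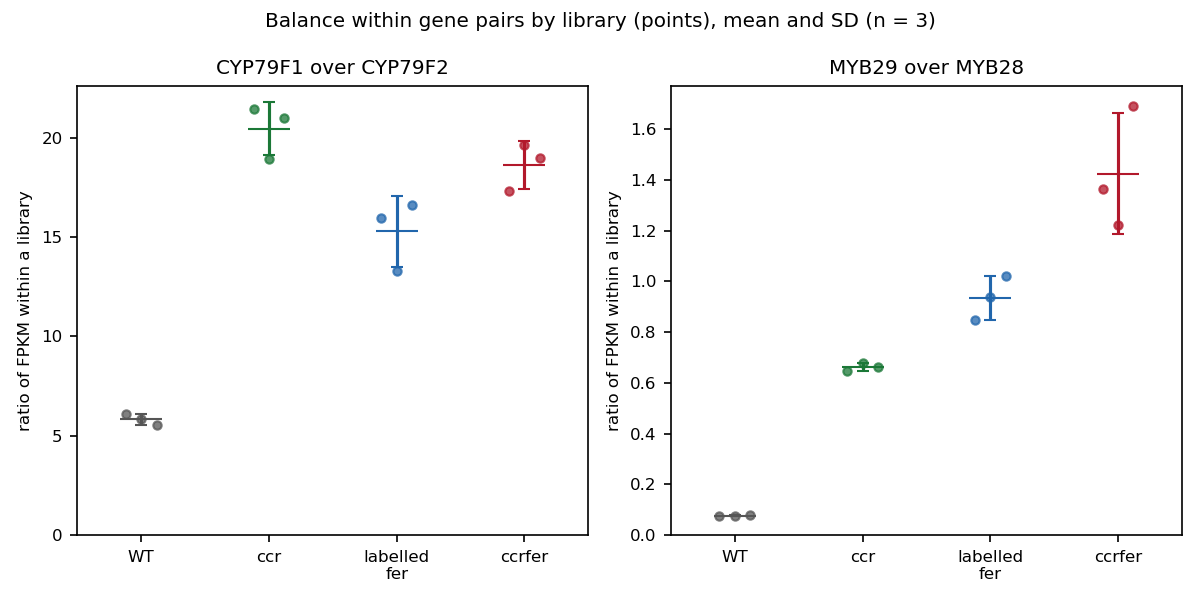
Ratio of FPKM within each library for CYP79F1 over CYP79F2 and MYB29 over MYB28, by genotype; points are libraries and lines are the mean and SD of 3. CYP79F1 over CYP79F2 lies between 5.54 and 6.12 in WT and above 13 in every other library, and MYB29 over MYB28 exceeds 1 in all ccrfer libraries and 1 of those labelled fer.

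Of the chain elongation genes, BCAT4 encodes the cytosolic aminotransferase that opens the pathway by deaminating methionine. WT libraries held 568, 582 and 567 FPKM, ccr libraries 818, 834 and 827, those labelled fer 1494.5, 1434 and 1474, and ccrfer libraries 1461, 1499 and 1359.9. The ccr libraries lay apart from both neighbours, and ccrfer overlapped with the libraries labelled fer. BCAT4 rose by 0.53 in ccr against WT (SE 0.0627, adjusted p = 2.9e-05) and by 0.80 in ccrfer against ccr (SE 0.0627, adjusted p = 2.48e-06), the latter becoming 0.37 after quantile normalization.

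BAT5, the plastid transporter that takes in the keto acids, spread widely between replicates. It stood at 47.0, 56.8 and 70.2 FPKM in WT and 63.6, 72.4 and 70.4 FPKM in ccr, ranges that overlap, and the difference of 0.26 was not called (SE 0.151, adjusted p = 0.19). It was 0.12 without WT replicate 1 and 0.40 without WT replicate 3, and it was called with array weights (adjusted p = 0.0344) and with AT2G01021 as a covariate (adjusted p = 0.049). In ccrfer it stood at 153, 107 and 139 FPKM, all above ccr, a rise of 0.93 (SE 0.151, adjusted p = 0.000913). The libraries labelled fer held 119.7, 136 and 146 FPKM.

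MAM1 and MAM3 encode methylthioalkylmalate synthases, the condensing enzymes of each round. For MAM1, WT libraries held 640.3, 633 and 617 FPKM, ccr libraries 619, 595 and 576, those labelled fer 1083, 1078 and 1075, and ccrfer libraries 996, 1027 and 1102. WT and ccr overlapped, with a difference of -0.08 that was not called (SE 0.0615, adjusted p = 0.335), and ccrfer lay above both. MAM1 rose by 0.80 in ccrfer against ccr (SE 0.0615, adjusted p = 2.02e-06), or by 0.41 after quantile normalization.

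MAM3, which in Arabidopsis can make the longest chains, was close to the lower limit of the table. It stood at 1.60, 1.83 and 0.994 FPKM in WT and at 0.0166, 0.344 and 0.313 FPKM in ccr, and was listed at 0 in every ccrfer library and in all but 1 of the libraries labelled fer, where it was 0.162. All WT libraries lay above all others. A 0 does not place these libraries below ccr, since the lowest values listed differ between libraries, with a first percentile of the values above 0 at 0.543 FPKM in ccrfer replicate 3, 0.245 and 0.160 in replicates 2 and 3 labelled fer, and 0.0207 to 0.0363 in WT and ccr. It was below the filter, and in a fit without a filter the difference of ccr from WT was -1.01 (SE 0.139, adjusted p = 0.00021) and that of ccrfer from ccr -0.28 (adjusted p = 0.224).

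CYP79F1 and CYP79F2, the P450s that convert elongated methionine derivatives to aldoximes, moved in opposite directions in ccr. CYP79F1, which takes short and long chains, stood at 280.5, 281 and 259.8 FPKM in WT libraries, 392, 379.7 and 382 in ccr libraries, 906, 795 and 877 in those labelled fer, and 746, 801 and 768 in ccrfer libraries. CYP79F2, which prefers long chains, stood at 45.8, 48.2 and 46.9 FPKM in WT libraries, 18.3, 20.1 and 18.2 in ccr libraries, 56.7, 59.9 and 52.8 in those labelled fer, and 43.1, 40.8 and 40.4 in ccrfer libraries. Libraries of ccr were thus the lowest of all for CYP79F2 and lay above WT for CYP79F1, and in ccrfer both genes stood above ccr.

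In ccr against WT, CYP79F1 rose by 0.49 (SE 0.0641, adjusted p = 6.39e-05) and CYP79F2 fell by 1.28 (SE 0.0640, adjusted p = 1.91e-08). In ccrfer against ccr the rises were 1.00 (SE 0.0641, adjusted p = 4.41e-07) and 1.10 (SE 0.0640, adjusted p = 1.98e-07). CYP79F2 was nevertheless lower in ccrfer than in WT by a small margin, with a difference of -0.18 (adjusted p = 0.0384) whose call was lost without any one of the WT libraries (adjusted p = 0.0606 to 0.123), without ccr replicate 1 (0.0504), without ccrfer replicate 2 (0.0857) or 3 (0.0668), and after quantile normalization (-0.11, adjusted p = 0.189). It was also lost without the trend (0.0688) and with only the compared genotypes fitted (0.0508). The ratio of CYP79F1 to CYP79F2 was 5.83 ± 0.291 (SD, n = 3) in WT, 20.5 ± 1.34 in ccr, 18.6 ± 1.20 in ccrfer and 15.3 ± 1.78 in the libraries labelled fer. WT did not overlap with ccr (exact permutation p = 0.1, adjusted 0.12), whereas ccrfer overlapped with ccr (exact permutation p = 0.3, adjusted 0.3).

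CYP83A1 oxidizes the aldoximes in the next step. Its level was 691, 667 and 646 FPKM in WT libraries, 839, 798 and 802 in ccr libraries, 1212, 1134 and 1142 in those labelled fer, and 1009, 1069 and 884 in ccrfer libraries. The 4 genotypes did not overlap, in the order WT, ccr, ccrfer and labelled fer. The steps were small, 0.28 in ccr against WT (SE 0.0772, adjusted p = 0.0105) and 0.28 in ccrfer against ccr (SE 0.0772, adjusted p = 0.0255). Calls in both were lost after quantile normalization, which turned the second to -0.10 (adjusted p = 0.608) and gave 0.32 (adjusted p = 0.0551) for the first, and the second was also lost without any one of the ccr libraries (adjusted p = 0.0514 to 0.0918) and without ccrfer replicate 1 (0.0693) or 2 (0.0671) and with only the compared genotypes fitted (0.111).

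**Figure D3:**
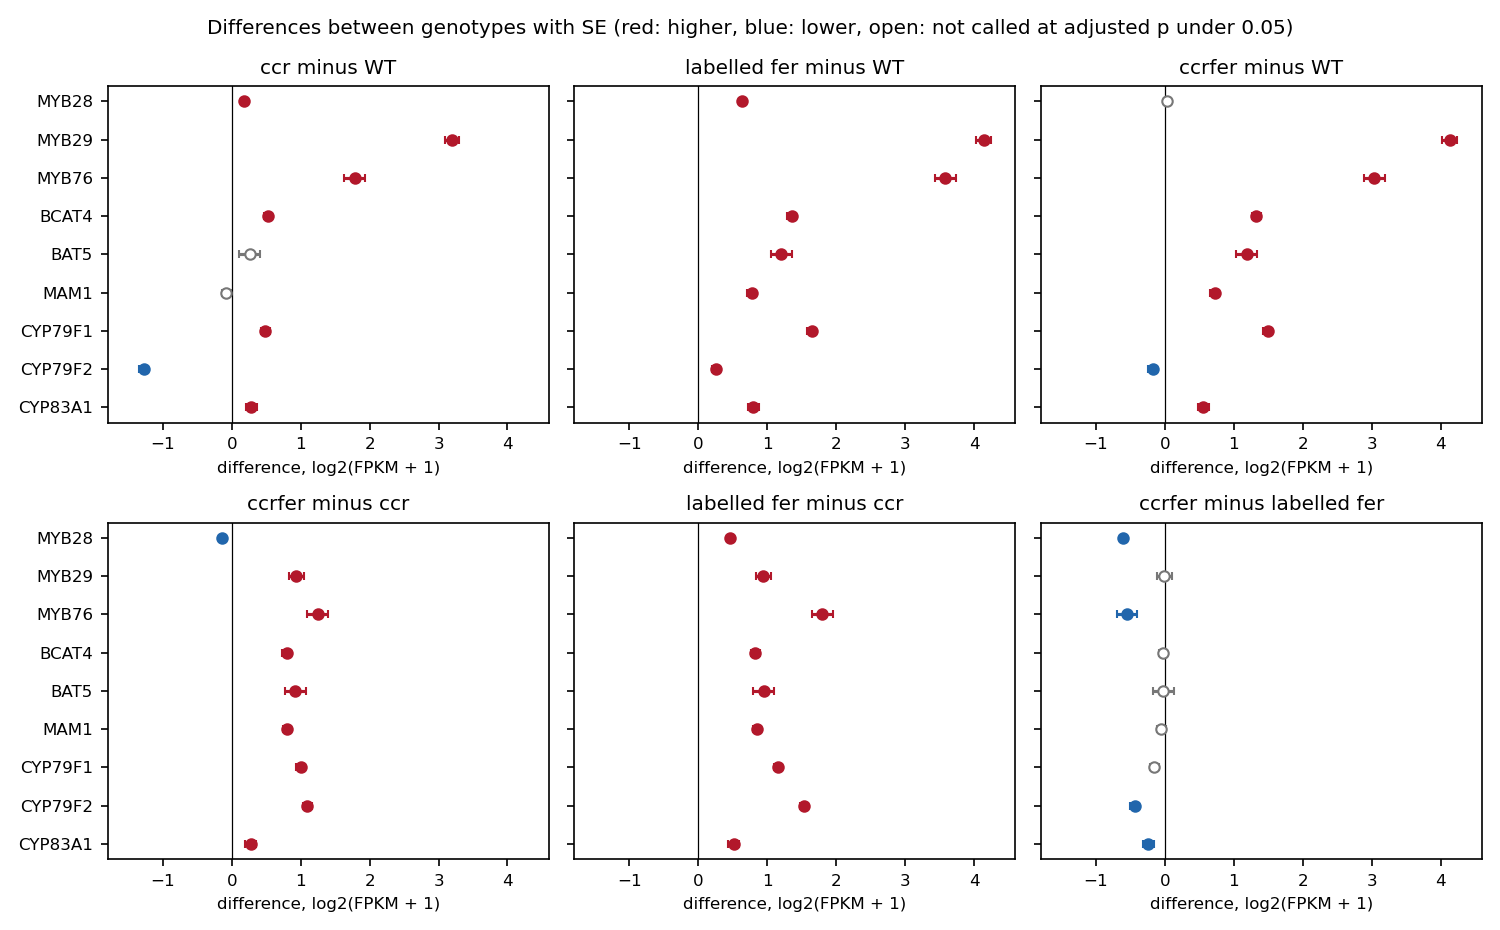
Differences between genotypes on the log2(FPKM + 1) scale for the 9 tested genes in 6 comparisons, with bars of 1 SE from the fit over 12 libraries; red is higher, blue lower and open not called. In ccr against WT the values run from -1.28 (CYP79F2) to 3.20 (MYB29), and in ccrfer against ccr from -0.15 (MYB28) to 1.25 (MYB76).

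The libraries labelled fer held the highest mean of each of the 9 tested genes described here. Against WT, 9 of the 9 rose, beside 28.4% of all tested genes that rose and 23.2% that fell, with a median difference of 1.21 and a range from 0.26 for CYP79F2 (adjusted p = 0.00506) to 4.14 for MYB29 (adjusted p = 4.35e-11). The 9 include MYB76, which passed the filter only through the mutants, and leave out MAM3. In the fit without a filter MAM3 differed from WT by -1.22 in these libraries (adjusted p = 3.69e-05). After quantile normalization CYP83A1 was no longer called (0.28, adjusted p = 0.0775), and MYB28 (0.38), BCAT4 (0.75) and MAM1 (0.27) had smaller differences that were still called. The summed seed markers named above were also highest in these libraries, and the root and endoplasmic reticulum body gene PYK10 stood at 76.7 ± 3.27 FPKM in them and 90.9 ± 1.03 in ccrfer, against 1.96 ± 0.388 in WT and 2.07 ± 0.142 in ccr. The other root markers did not follow it, with BGLU21 at 0 in all 12 libraries and MYB36 at most at 0.196 FPKM. The part of these transcripts in the differences was not tested. Against ccr, 9 of 9 rose too, beside 20.5% of all tested genes that rose and 18.5% that fell, by 0.46 for MYB28 to 1.80 for MYB76. After quantile normalization CYP83A1 (-0.0397) and BCAT4 (0.11, adjusted p = 0.425) were not called in that comparison, and MYB28 (0.20), MAM1 (0.32) and CYP79F1 (0.66) were called at smaller differences.

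In ccrfer against the libraries labelled fer, 0 of the 9 rose and 4 fell, beside 19.3% and 21.3% of all tested genes. The 4 were MYB28 (-0.60, adjusted p = 7.67e-07), MYB76 (-0.55, adjusted p = 0.0125), CYP79F2 (-0.44, adjusted p = 0.000212) and CYP83A1 (-0.24, adjusted p = 0.027). MYB76 lost its call with a pseudocount of 0.1 (adjusted p = 0.067), and CYP83A1 after quantile normalization (adjusted p = 0.721), which brought MYB28 to -0.34, still called. CYP83A1 was also not called with array weights (0.0835), without replicate 1 labelled fer (0.0829) or without ccrfer replicate 3 (0.0507). When only these 2 genotypes were fitted, 2 of the 9 were called, and MYB76 (adjusted p = 0.0602) and CYP83A1 (adjusted p = 0.137) were not. MYB29, BCAT4, BAT5 and MAM1 differed by -0.05 to -0.01 without a call, and CYP79F1 by -0.15 (adjusted p = 0.0772), which was called without replicate 2 labelled fer (-0.21, adjusted p = 0.027) and with AT2G01021 as a covariate (-0.16, adjusted p = 0.029).

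In ccrfer against WT, 7 of the 9 rose and 1 fell, beside 24.9% and 22.8% of all tested genes. MAM3, below the filter, differed by -1.29 in the fit without a filter (adjusted p = 2.88e-05). MYB29 rose by 4.13, MYB76 by 3.04, CYP79F1 by 1.49, BCAT4 by 1.33, BAT5 by 1.19, MAM1 by 0.72 and CYP83A1 by 0.56. CYP79F2 was the one that fell, and MYB28 differed by 0.04 (adjusted p = 0.515). After quantile normalization MAM1 was still called at 0.36 and CYP83A1 was not, at 0.22 (adjusted p = 0.168). Whether the effect of ccr1-3 differs with the fer label was tested by an interaction term, in which 1 of the 9 passed as higher and 6 as lower, beside 17.1% and 22.4% of all tested genes. The summed FPKM of the 10 genes went from 2353 to 2411 in WT through 2922 to 3000.4 in ccr and 4658 to 4848 in ccrfer to 5047 to 5249 in the libraries labelled fer.

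The rest of the aliphatic pathway was followed in 24 listed genes of chain elongation, core synthesis and side-chain modification, of which 20 were tested. In ccr against WT, 14 of the 20 rose and 5 fell, where 24% of all tested genes rose and 19.8% fell, and their median was 0.38. In ccrfer against ccr 18 rose and 0 fell, where 10.4% and 10.1% of all tested genes did, and their median was 0.64. The same shares of all tested genes apply to the lists named next. AOP3, BZO1 and SCPL17 of the side-chain list were below the filter, and AOP2 was not analysed here.

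Of the 5 other chain elongation genes, 4 rose in ccr and 5 in ccrfer against ccr. IPMDH1, a dehydrogenase of the elongation cycle, had means of 124 ± 5.11 FPKM (SD, n = 3) in WT, 242 ± 0.889 in ccr, 459 ± 42.9 in ccrfer and 405 ± 12.9 in the libraries labelled fer. It rose by 0.96 (adjusted p = 3.26e-07) and then by 0.92 (adjusted p = 1.34e-06). IPMI_SSU2, an isomerase small subunit, went from 68.7 ± 1.95 to 128 ± 2.298 and 208 ± 6.31 FPKM in WT, ccr and ccrfer. Of 5 counterparts of these enzymes in leucine synthesis, 1 rose (IPMS2, 0.42) and 1 fell (IPMS1, -0.25) in ccr, near the 24% and 19.8% of all tested genes. In ccrfer against ccr 0 of the 5 passed, beside 10.4% and 10.1% of all tested genes, and their differences lay between -0.30 and -0.00. Whether the lists differ from each other was not tested.

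In the core list, 7 of 9 rose and 2 fell in ccr, and 8 of 9 rose in ccrfer against ccr. GSTU20, a glutathione transferase assigned to the pathway, had the largest rise in ccr, from 214 ± 3.11 to 502 ± 24.3 FPKM, a difference of 1.22 (adjusted p = 1.01e-08), and reached 934 ± 38.4 FPKM in ccrfer. UGT74B1, a glucosyltransferase, fell by 0.53 in ccr (adjusted p = 3.89e-05) and rose by 0.63 in ccrfer against ccr (adjusted p = 2.61e-05), and GGP1, a gamma-glutamyl peptidase, fell by 0.15 and rose by 0.60. The desulfoglucosinolate sulfotransferases SOT17 and SOT18 rose by 0.41 and 0.30 in ccr and by 0.98 and 0.49 in ccrfer against ccr.

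Of the 6 tested side-chain genes, 3 rose and 3 fell in ccr. The S-oxygenase gene FMOGSOX1 went from 16.4 ± 1.14 FPKM in WT to 63.3 ± 1.501 in ccr and 133 ± 19.5 in ccrfer, with differences of 1.89 (adjusted p = 1.68e-08) and 1.05 (adjusted p = 7.29e-06). FMOGSOX2 rose by 1.69 in ccr and FMOGSOX3 by 0.37, while FMOGSOX4 fell by 1.00, FMOGSOX5 fell by 0.65 and AOP1, a dioxygenase gene, fell by 1.04. In ccrfer against ccr, 5 of the 6 rose and FMOGSOX5 did not pass (0.18, adjusted p = 0.0664).

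**Figure D4:**
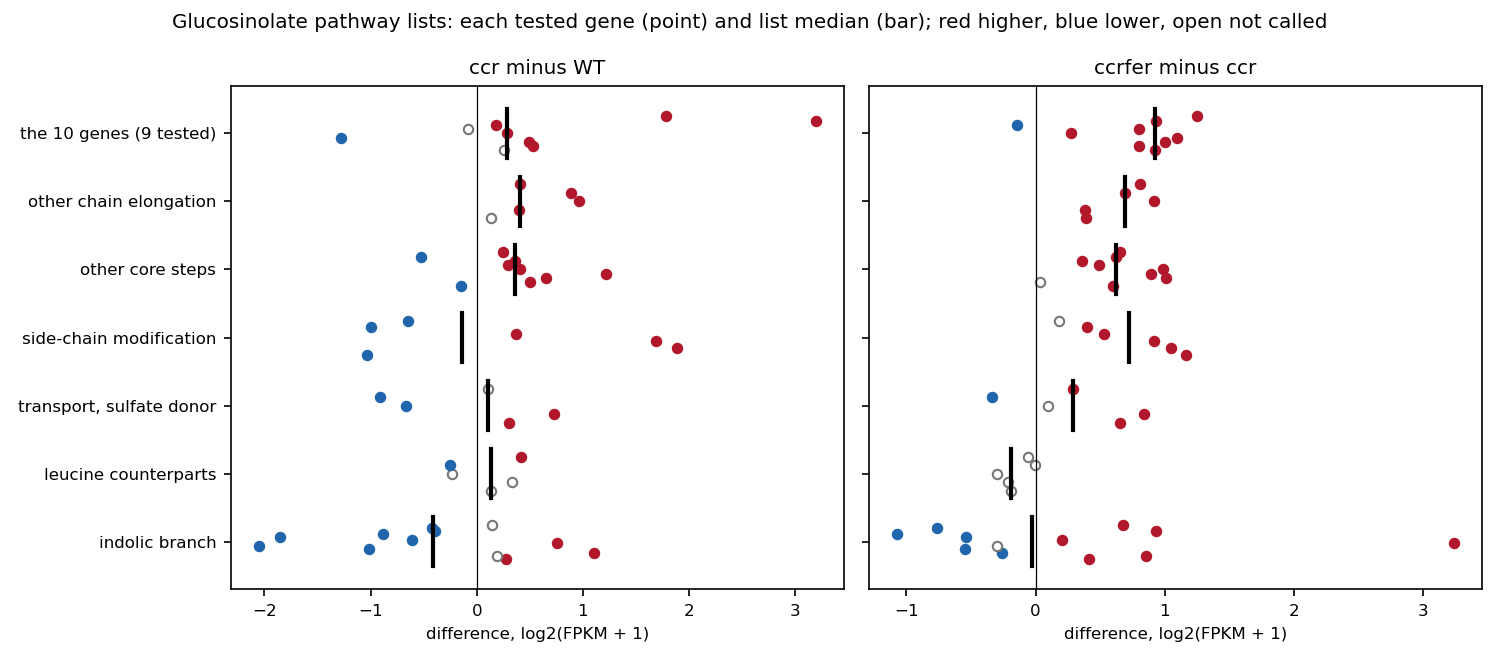
Difference of each tested gene of the listed groups on the log2(FPKM + 1) scale in ccr against WT (left) and in ccrfer against ccr (right); each point is a gene and each bar the median of its list. Medians of the 9 tested genes described here are 0.28 and 0.93, those of the indolic list -0.41 and -0.03.

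Of the 5 genes for transport and the sulfate donor, the glucosinolate importers GTR1 (-0.66, adjusted p = 5.29e-06) and GTR2 (-0.91, adjusted p = 2.73e-07) fell in ccr. GTR2 stood at 414 ± 7.28 FPKM in WT, 219.7 ± 3.60 in ccr, 174 ± 15.9 in ccrfer and 392 ± 9.61 in the libraries labelled fer. APK1 and APK2, kinases that make the activated sulfate used by the sulfotransferases, rose by 0.30 and 0.73 in ccr and by 0.65 and 0.84 in ccrfer against ccr.

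Of 7 other regulators, 3 rose and 3 fell in ccr. MYC2 did not pass in ccr (0.01, adjusted p = 0.952) and fell by 0.44 in ccrfer against ccr (adjusted p = 0.000875). MYC3 (-0.75) and MYC4 (-0.23) fell in ccr. SDI1 and SDI2, known as sulfur-responsive repressors of aliphatic glucosinolate synthesis that act on MYB28, rose in ccr and fell in ccrfer against ccr. SDI1 stood at 1.26 ± 0.312 FPKM in WT, 6.23 ± 0.352 in ccr and 0.977 ± 0.887 in ccrfer, with differences of 1.69 (adjusted p = 0.000577) and -1.99 (adjusted p = 0.000434), and SDI2 changed by 0.77 and -0.95. The authors' deposited table of 313 genes holds SDI1 and the indolic gene CYP81F1, and 0 of the 10 genes described here.

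The indolic branch, made from tryptophan, shares the later core enzymes and has its own CYP79B and CYP83B1 entry. Of 13 listed genes 12 were tested, and 3 rose, near the 24% of all tested genes, and 7 fell in ccr, with a median of -0.41. MYB34 and MYB51, its activators, changed by -0.40 and -0.42, and CYP83B1, the indolic relative of CYP83A1, fell by 0.61 (adjusted p = 6.63e-06). IGMT1, an indole glucosinolate methyltransferase, fell by 1.85 and CYP81F3, an indole ring hydroxylase, changed by -2.06. In ccrfer against ccr 6 rose and 5 fell, with a median of -0.03. The rises in both comparisons include CYP81F4, which passed the filter only through ccrfer and the libraries labelled fer. Whether the 2 branches differ was not tested.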

How the data were processed

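Stranded mRNA libraries were sequenced as pairs of 75-base reads, per the labels' protocols. TopHat2 2.1.1, Bowtie2 2.3.2.0, Cufflinks 2.2.1 and Cuffdiff are named in the submitters' processing notes, and the genome and annotation were TAIR10 and Araport11, per the file headers. The FPKM values were computed by the authors for 27655 genes. Read numbers and the mapped fraction were deposited by the authors for each library. Their table of 313 genes holds the authors' log2 ratios and p-values, per the file headers. It was used to look up listed genes, to compare its means with those of the libraries, and for its gene coordinates. No read counts per gene entered the tests, so counting error is unknown.

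Log2(FPKM + 1) was tested for the 18428 genes whose FPKM reached 1 in 3 libraries or more with limma 3.58.1 in R 4.3.3, with empirical Bayes moderation and a trend, a mean per genotype and no block. Two-sided p-values were adjusted over all tested genes by the Benjamini-Hochberg method. Every adjusted p of a gene is from limma, and SE is that of the fit. The test was also run on simulated normal values with the same spread in every genotype. Replicates of ccrfer were less alike than those of the other genotypes, so that run does not check the test under such spread.

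The members and lists were chosen with earlier results of these data known. Named genes were the members, the genes of the pathway lists, FER and CCR1 as checks, and for MYB28, MYB29 and CYP83A1 the 5 genes most correlated with each over the 12 libraries at a mean FPKM of 5 or more. The ratios were added later. Of 27655 identifiers, 27445 matched RefSeq entries. The coordinates in the authors' table of 313 genes and those of RefSeq TAIR10.1 agreed within 1000 bases at both ends for 308 of 312 genes with both. Other genes were not checked in this way. Alternatives changed the pseudocount, filter, scaling, spread model, samples and block.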

Additional observations from a re-analysis of the deposited data

Results flagged for a closer look

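The difference between ccrfer and the libraries labelled fer was compared with the difference between ccr and WT by an interaction term in the limma fit, which asks if the effect of ccr1-3 is the same with and without the fer label. It differed for 7 of the 9 tested genes, 1 higher and 6 lower, beside 17.1% and 22.4% of all tested genes. The difference of differences was -3.20 for MYB29 (adjusted p = 1.7e-08), whose rise in ccr had no counterpart between ccrfer and the libraries labelled fer. It was -2.33 for MYB76 (adjusted p = 3.91e-06) and -0.788 for MYB28 (adjusted p = 1.12e-06), or -0.52 after quantile normalization, and for MYB76 it spanned -4.00 to -1.06 over the pseudocounts of 0.1 and 5. Among the enzymes it was -0.557 for BCAT4 (adjusted p = 0.000358), -0.643 for CYP79F1 (adjusted p = 0.000138) and -0.524 for CYP83A1 (adjusted p = 0.0024), the last not called after quantile normalization (adjusted p = 0.107). CYP79F2 was the exception in sign, at 0.84 (adjusted p = 1.55e-05), since it fell by 1.28 in ccr against WT and by 0.44 in ccrfer against the libraries labelled fer. BAT5 (-0.28, adjusted p = 0.327) and MAM1 (0.03, adjusted p = 0.835) did not pass. All 7 values rest on libraries labelled fer that keep FER at the WT level and carry seed transcripts, and the part of either was not tested.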

How the results depend on the processing

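Of 1404 recomputed differences of the 9 tested genes, 1343 kept their direction and their side of the threshold, 38 lost their call, 4 gained one and 19 changed sign, 2 of them among called differences. Quantile normalization, which forces 1 distribution on all libraries, changed the sign of 7. These were CYP83A1 in ccrfer against ccr (-0.10) and in the libraries labelled fer against ccr (-0.0397), and, in ccrfer against the libraries labelled fer, MYB29 (0.26), BCAT4 (0.26), BAT5 (0.19), MAM1 (0.0878) and CYP79F1 (0.0351). It also ended the call of BCAT4 in the libraries labelled fer against ccr (0.11, adjusted p = 0.425). Sign changes of uncalled differences in ccrfer against the libraries labelled fer also came from leaving out 1 library, with ranges of -0.133 to 0.0945 for MYB29, -0.131 to 0.128 for BAT5 and -0.0577 to 0.0125 for BCAT4, and from the AT2G01021 level as a covariate (MYB29 0.0316, BAT5 0.0242), an alternative chosen after seeing the data. MYB28 in ccrfer against WT was -0.00563 with median-of-ratios scaling, and the MAM1 interaction was -0.00204 with array weights and -0.014 to 0.0587 without single libraries. BAT5 in ccr against WT was called with array weights (adjusted p = 0.0344) and with the covariate (adjusted p = 0.049), and CYP79F1 in ccrfer against the libraries labelled fer without replicate 2 labelled fer (-0.21) and with the covariate (-0.16). The causes were not tested.

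Without single libraries, 7 to 7 of the 9 were called in ccr against WT, 7 to 9 in ccrfer against ccr, 9 to 9 in the libraries labelled fer against WT and 9 to 9 against ccr, 3 to 5 in ccrfer against the libraries labelled fer, 7 to 8 in ccrfer against WT and 7 to 7 in the interaction. With only the compared genotypes fitted, 2 were called in ccrfer against the libraries labelled fer, where all tested genes gave 4380 calls in place of 7481. Total calls were also 12323 in place of 8058 in ccr against WT with array weights, and 2310 in place of 3769 in ccrfer against ccr with the covariate. Replicate numbers paired no libraries by the check made: 18 same-number pairs had a median correlation of 0.016, and 4 of 12 libraries correlated best with their own number. The replicate block changed 1 call, that of MYB28 in ccrfer against ccr (adjusted p = 0.0552). Without the libraries labelled fer, also chosen after seeing the data, the 27 differences that remained kept their calls. Depth per gene is unknown, and MAM3 and, in WT, MYB76 lie at the lower limit of the values.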

Other observations

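The myrosinase genes TGG1 and TGG2, whose enzymes cut glucosinolates and which mark myrosin and guard cells, stood lowest in WT and highest in ccrfer. TGG1 stood at 1.75 ± 0.282 FPKM (SD, n = 3) in WT libraries, 80.1 ± 1.35 in ccr libraries, 119 ± 1.98 in those labelled fer and 191 ± 4.94 in ccrfer libraries. TGG2 stood at 0.518 ± 0.524, 94.2 ± 4.49, 110.4 ± 4.18 and 242 ± 5.81 FPKM in the same order. FAMA, a guard cell and myrosin cell regulator, stood at 4.61 ± 0.181, 2.93 ± 0.0191, 7.49 ± 1.56 and 6.78 ± 3.63 FPKM. The values are descriptions without a test.

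CYP81F4, an indole ring methoxylation gene, had the largest difference of the indolic list in ccrfer against ccr, 3.24 (SE 0.195, adjusted p = 2.44e-07), from 0.742 ± 0.215 to 15.7 ± 3.84 FPKM. The gene stood at 0 to 0.0483 FPKM in WT and 0.551 to 0.975 FPKM in ccr. It passed the filter only through ccrfer and the libraries labelled fer, and at such low values the size depends on the pseudocount. MYB34 rose by 0.93 and MYB51 fell by 0.76 in ccrfer against ccr, and SOT16, the indolic sulfotransferase, rose by 0.68.

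The 12 libraries hold 4 genotypes and differ in depth. Over them, log2(FPKM + 1) of MYB29 had a Pearson r of 0.958 with MYB76, 0.916 with BCAT4, 0.532 with MYB28 and -0.080 with CYP79F2. The 5 genes outside the 10 that were most like MYB29 were ANT (0.997), AUX1 (0.996), AT5G37790 (0.995), AT3G20390 (0.995) and XCP2 (0.994). Those most like MYB28 were AT5G15950 (0.993), DHDPS2 (0.991), BTS (0.991), ATBETAFRUCT4 (0.988) and AT4G15660 (0.987). For CYP83A1 they were SUR1 (0.991), AT5G44720 (0.991), NAC045 (0.987), AT4G27870 (0.985) and SOT18 (0.985), of which SUR1, the C-S lyase, and SOT18 belong to the core list. These correlations describe 4 genotypes and carry no test.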
